A study of Homo sapiens with 20 samples.

Results

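Transcript counts of 9 genes of the epidermal growth factor receptor pathway were examined in 4 lung cancer cell lines. The genes were the receptor *EGFR*, its ligands *AREG*, *EREG*, *HBEGF*, *TGFA* and *BTC*, and the feedback inhibitors *ERRFI1*, *SPRY2* and *SPRY4*. They were chosen by name, with earlier results of these data known, so counts of calls among them are descriptions and no test of the set. Each matched 1 Ensembl identifier, so that they are 9 of the 58233 genes in the count data. There were 20 RNA-seq libraries in 10 conditions, with 2 libraries a condition that differed in the single guide RNA (sgRNA) used. All cells carried Cas9 and an sgRNA delivered by lentivirus and selected with puromycin, the control sgRNAs being directed against *GFP* and the others against *ADAR*, which encodes the RNA-editing enzyme ADAR1. They were transduced populations and not clones. HCC366 (lung adenosquamous carcinoma), NCI-H1650 (lung adenocarcinoma) and NCI-H196 (a variant small cell lung cancer line), which the study describes as ADAR1-dependent, were compared without treatment. A549 (lung adenocarcinoma) cells of either genotype were given vehicle or 10 ng/mL interferon-β (IFN-β) for 24 h.

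EGFR is a receptor tyrosine kinase of the ERBB family. Its ligands are made as membrane-anchored precursors and are released by proteases such as ADAM17, after which the receptor signals through RAS, RAF and MEK to the kinase ERK. ERK activity raises transcription of several ligands, which can act on the same cell, and of inhibitors that close a negative loop: ERRFI1 (also known as MIG6) binds and blocks the EGFR kinase domain, and the Sprouty proteins SPRY2 and SPRY4 restrain signalling between receptor and RAF. Activating *EGFR* mutations are frequent in lung adenocarcinoma, and NCI-H1650 is known to carry one. The counts held no sequence, so neither that allele nor transcript isoforms could be told apart, and 1 mutant line against 3 others cannot separate the mutation from anything else in which the lines differ.

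In GRCh37 coordinates *EGFR* lies at chr7:55086710-55279321 on the plus strand with 28 exons in its canonical transcript. 3 of the ligand genes lie on chromosome 4, namely *EREG* at chr4:75230862-75254466 and *AREG* at chr4:75310853-75320722 on the plus strand, and *BTC* at chr4:75669969-75719733 on the minus strand. *HBEGF* is at chr5:139712428-139726188, *TGFA* at chr2:70674416-70781325, *ERRFI1* at chr1:8064464-8086369, *SPRY2* at chr13:80910111-80915261 and *SPRY4* at chr5:141689992-141706020, all on the minus strand. Other annotated genes overlap *EGFR*, *TGFA*, *ERRFI1* and *SPRY4*, and the strand setting of the counting is not given in the sources used here, so reads of those overlaps could be shared.

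*AREG* needs a caution of its own. GRCh37 holds a near-identical copy of the gene at chr4:75480629-75490474, and 63 of 67 pieces of 100 bases cut from its exons (94.0%) mapped equally well to both places, against 0 pieces of each of the other 8 genes. How the counting treated such reads is not given in the sources used here, the reads being longer than these pieces and paired, so the level of *AREG* is uncertain and only the part that was counted is compared between conditions. The duplication reaches into the promoter. The 250 bases before the *AREG* start, at chr4:75310603-75310852, occur a second time, letter for letter, at chr4:75480379-75480628.

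The 250 bases upstream of the start are shown for the 4 ligand genes whose entry in the promoter table began at the annotated start, which left out *TGFA*. The letters are those of the RefSeq promoter table (GRCh38.p14), which had an entry for all 9 genes, and they were placed in GRCh37 by an exact match. They are given 5′ to 3′ on the strand of the gene, *AREG* from the place named above, *EREG* from chr4:75230612-75230861, *HBEGF* from chr5:139726189-139726438 and *BTC* from chr4:75719734-75719983. Capitals mark the only match found to any of 4 motifs.
AREG: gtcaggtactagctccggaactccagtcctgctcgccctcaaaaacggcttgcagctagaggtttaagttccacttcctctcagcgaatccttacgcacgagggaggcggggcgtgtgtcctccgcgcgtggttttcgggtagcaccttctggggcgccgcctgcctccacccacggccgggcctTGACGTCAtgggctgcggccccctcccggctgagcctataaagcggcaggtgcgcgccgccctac
EREG: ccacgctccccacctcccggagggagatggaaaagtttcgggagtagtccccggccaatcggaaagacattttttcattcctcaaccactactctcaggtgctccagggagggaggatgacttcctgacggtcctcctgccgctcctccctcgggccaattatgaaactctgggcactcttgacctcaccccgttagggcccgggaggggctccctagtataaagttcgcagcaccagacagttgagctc
HBEGF: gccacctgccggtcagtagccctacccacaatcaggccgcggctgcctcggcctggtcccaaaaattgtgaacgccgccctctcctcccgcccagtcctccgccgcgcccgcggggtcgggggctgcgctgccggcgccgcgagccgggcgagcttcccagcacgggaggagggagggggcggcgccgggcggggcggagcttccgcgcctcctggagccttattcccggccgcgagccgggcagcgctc
BTC: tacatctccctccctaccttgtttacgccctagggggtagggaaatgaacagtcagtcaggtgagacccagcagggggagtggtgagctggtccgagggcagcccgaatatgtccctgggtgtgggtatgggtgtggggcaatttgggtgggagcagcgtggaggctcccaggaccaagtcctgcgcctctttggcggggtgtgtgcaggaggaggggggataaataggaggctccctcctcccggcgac

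The motifs were searched on both strands in these stretches and in that of *ERRFI1*. They were the cyclic AMP response element TGACGTCA, the AP-1 element TGANTCA, the ATF4 composite element TGATGNAA and the interferon-stimulated response element. *AREG* held TGACGTCA once, at position -65 from its start, a motif present in 1.65% of 35116 promoter windows of that length. The other 3 motifs, found in 6.57%, 3.14% and 3.02% of those windows, had no match in any of the 5 stretches. The table's entries for *EGFR*, *TGFA*, *SPRY2* and *SPRY4* start inside the annotated gene and were not searched.

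Sequencing depth set what could be seen. Reads on genes ranged from 62679 to 19520189 a library. The shallowest was the NCI-H196 *GFP* library of sgRNA 2, the next lowest having 1026443, and that library held 29 reads of *EGFR*, 6 of *ERRFI1*, 2 of *SPRY4*, 1 each of *HBEGF* and *SPRY2* and none of the other 4 genes. In the HCC366 *ADAR* library of sgRNA 2, 85.6% of the alignments were reported as not unique, against 22.5 to 59.1% elsewhere. *ADAR* transcripts fell with the *ADAR* sgRNAs in NCI-H1650 (log2 fold change -1.29), in NCI-H196 (-0.41) and in A549 with vehicle (-1.08) and with IFN-β (-0.60), and the HCC366 value of -0.84 did not pass (edgeR adjusted p = 0.208). Transcript counts do not measure the ADAR1 protein. All 6 interferon-stimulated genes checked rose with IFN-β in A549 of either genotype. Marker levels are counts scaled to library size (CPM, per 1e+06 reads), here scaled together over all 20 libraries. Epithelial markers had summed levels of 5911 to 6687 CPM in NCI-H1650. The sums were 6591 to 9869 CPM in A549 and 2635 to 3914 in HCC366, where *KRT19* had no read. *EPCAM* did not exceed 0.630 CPM in A549 and 1.87 in HCC366, and *CDH1* was at 16.6 to 61.2 and 2.28 to 9.91. *KRT19* did not exceed 1.66 CPM in A549, so the sums of these lines came mostly from *KRT7*, *KRT8* and *KRT18*. In NCI-H196 the epithelial markers summed to 52.3 to 83.9 CPM while the mesenchymal markers *VIM* and *COL1A2* were at 1318 to 2277 and 2022 to 2601 CPM. *VIM* was also at 688 to 866 CPM in A549 and 110 to 135 in NCI-H1650, where *COL1A2* did not exceed 0.0616 and 0.663 CPM. *ZEB1*, the remaining mesenchymal marker, was at 115 to 157 CPM in NCI-H196, 29.1 to 50.1 in A549 and 1.99 to 3.45 in NCI-H1650. In NCI-H196 *NEUROD1* and *INSM1*, markers of neuroendocrine small cell lung cancer, had no read. Squamous markers were near 0 in the adenosquamous line HCC366 (summed 1.43 to 4.89 CPM), and *NKX2-1*, a lung adenocarcinoma marker, did not exceed 0.570 CPM in any library.

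Before any knockout, *EGFR* was abundant in all 4 lines, and the lines differed in which ligands they transcribed. Levels in this comparison are CPM scaled together over the 8 *GFP* libraries of untreated or vehicle-treated cells, and fold changes come from 1 edgeR fit over them. In NCI-H1650 *EGFR* was at 922 and 893 CPM in the 2 libraries. It was at 1046 and 952.5 in HCC366, at 646 and 679.5 in A549 and at 454 and 342 in NCI-H196. Both NCI-H1650 libraries thus lay below both HCC366 libraries and above all libraries of A549 and NCI-H196. The difference from HCC366 did not pass the threshold of an adjusted p of 0.05 (log2 fold change -0.14, 95% interval -0.42 to 0.15, edgeR adjusted p = 0.431). *EGFR* was 2.09-fold higher than in NCI-H196 (log2 1.06 ± 0.166 SE, adjusted p = 4.07e-09) and 1.37-fold higher than in A549 (log2 0.45 ± 0.143, adjusted p = 0.00297). The call against A549 was lost without the A549 sgRNA 1 library (adjusted p = 0.0540), without the NCI-H1650 sgRNA 1 library (0.0582) and with no filter on low counts (0.161). A549 and NCI-H196, neighbours in this order, were not tested against each other.

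*TGFA*, which encodes the ligand transforming growth factor α, was higher in NCI-H1650 than in each other line. Its level was 292 and 238.5 CPM in NCI-H1650, 48.7 and 40.9 in HCC366, 20.6 and 21.0 in A549 and 0.420 and 0 in NCI-H196. No library of another line reached the NCI-H1650 values. *TGFA* was 6.10-fold higher than in HCC366 (log2 2.61 ± 0.152, edgeR adjusted p = 6.41e-42) and 12.7-fold higher than in A549 (log2 3.67 ± 0.140, adjusted p = 5.25e-71). Against NCI-H196 the reads were 2445 and 4, a ratio of 640 with a 95% exact counting interval of 250 to 2350.

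*EREG*, which encodes epiregulin, a ligand of EGFR and ERBB4, was lower in NCI-H1650 than in HCC366 and A549. NCI-H1650 had 0.632 and 0.225 CPM, from 3 reads and 1 read, against 124 and 114 CPM in HCC366 and 176 and 173 CPM in A549. The reads give a ratio of 268 for HCC366 over NCI-H1650 (95% exact counting interval 104 to 989) and of 400 for A549 over NCI-H1650 (156 to 1470). In NCI-H196 the libraries were at 7.03 and 0 CPM, and the lower value in NCI-H1650 (log2 -3.92, edgeR adjusted p = 2.27e-11) rested on the deeper NCI-H196 library, without which the log2 fold change was 4.05 and not called. These intervals cover counting error only.

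*HBEGF*, which encodes a heparin-binding ligand, and *AREG*, which encodes amphiregulin, also differed between lines. *HBEGF* was at 43.4 and 30.6 CPM in NCI-H1650, 93.4 and 61.6 in HCC366, 38.0 and 11.8 in NCI-H196 and 10.8 and 12.9 in A549. It was 1.98-fold lower in NCI-H1650 than in HCC366 (log2 -0.99 ± 0.174, edgeR adjusted p = 1.80e-07) and 3.07-fold higher than in A549 (log2 1.62 ± 0.181, adjusted p = 7.33e-16), and the NCI-H196 libraries overlapped it. The counted part of *AREG* was at 13.05 and 8.78 CPM in NCI-H1650, 1.60 and 0.888 in HCC366, 4.405 and 0 in NCI-H196 and 34.1 and 33.6 in A549. NCI-H1650 therefore lay between A549, where *AREG* was 3.08-fold higher (log2 -1.62 ± 0.213 for NCI-H1650 against A549, adjusted p = 2.76e-12), and HCC366, where 5 reads against 101 give a ratio of 10.2 (4.22 to 32.0). The A549 difference had an adjusted p of 0.0668 with DESeq2. *BTC*, which encodes betacellulin, did not exceed 1.58 CPM in any of the 8 libraries and did not pass the filter on low counts.

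The Sprouty genes were lowest in A549, and *ERRFI1* was low there and in the shallow NCI-H196 library. *ERRFI1* was at 205 and 195 CPM in NCI-H1650, 182 and 218.5 in HCC366, 174 and 70.8 in NCI-H196 and 61.65 and 79.3 in A549. It was 2.81-fold higher in NCI-H1650 than in A549 (log2 1.49 ± 0.130, edgeR adjusted p = 1.44e-23) and did not differ detectably from HCC366 (log2 -0.02, 95% interval -0.28 to 0.24). *SPRY2* was at 22.5 and 22.1 CPM in NCI-H1650, 42.3 and 31.1 in HCC366, 40.5 and 11.8 in NCI-H196 and 6.25 and 5.205 in A549. *SPRY4* was at 40.8 and 32.9 CPM in NCI-H1650, 67.8 and 54.8 in HCC366, 69.0 and 23.6 in NCI-H196 and 10.5 and 14.2 in A549. For both Sprouty genes NCI-H1650 lay above A549 (log2 1.99 ± 0.226 and 1.54 ± 0.177) and below HCC366 (log2 -0.65 ± 0.213, adjusted p = 0.00571, and -0.69 ± 0.175, adjusted p = 0.000319), and it overlapped NCI-H196. The HCC366 differences did not pass with DESeq2 (adjusted p = 0.332 and 0.193), and that of *SPRY2* was lost without the HCC366 *GFP* sgRNA 1 library (0.0969). The values below NCI-H196 that did pass (log2 -0.82 and -0.86) turned to 0.93 and 0.66, not called, without the deeper NCI-H196 library.

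Counted over the 8 tested genes, NCI-H1650 had 2 higher and 4 lower than HCC366, 3 higher and 3 lower than NCI-H196, and 6 higher and 2 lower than A549. Of all 15964 genes tested, 56.7% were called against HCC366 (29.5% higher and 27.2% lower), 61.7% against NCI-H196 (30.7% and 31.1%) and 68.3% against A549 (33.9% and 34.4%), so these counts are near the background and are not a result about these genes. The plot of the line differences shows the size of each against its interval.

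**Figure D1:**
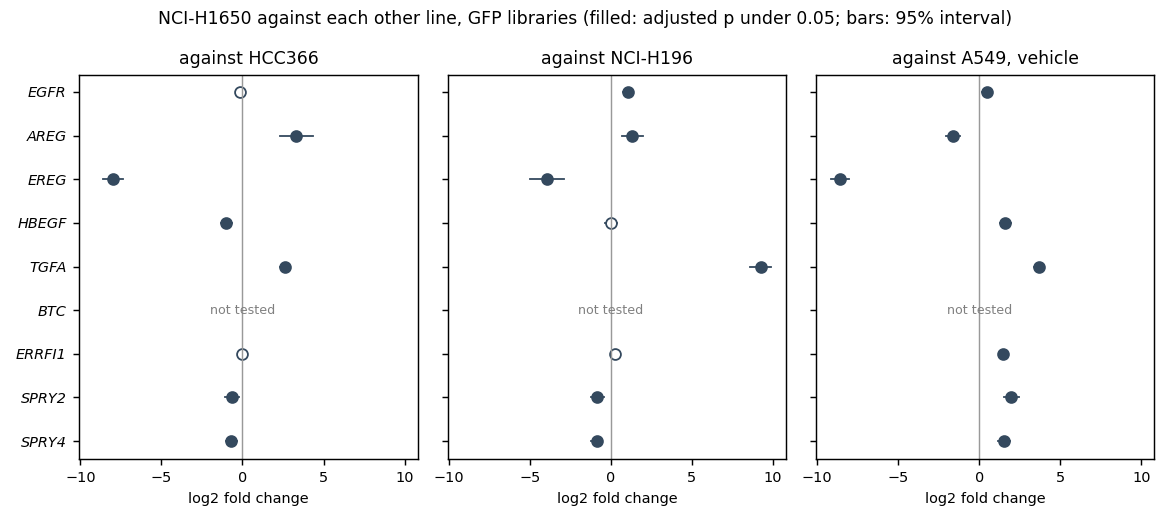
Log2 fold change (x axis) of each gene (y axis) in NCI-H1650 against HCC366, NCI-H196 and A549 with vehicle, from the *GFP* libraries, with bars for the 95% interval and filled points where the edgeR adjusted p was under 0.05. *TGFA* lies to the right in all 3 panels (2.61, 9.24 and 3.67) and *EREG* to the left (-8.00, -3.92 and -8.57), and *BTC* was not tested.

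Levels of different genes can be compared only per length. In CPM per kilobase of exon (RPKM), the NCI-H1650 *GFP* libraries had *TGFA* at 62.2 and 51.4, *EGFR* at 60.6 and 59.4, *ERRFI1* at 51.45 and 49.6, and *HBEGF* at 15.2 and 10.9. *SPRY2*, *SPRY4*, *BTC* and *EREG* were below 7.35 RPKM. The lengths join all annotated exons of a gene (15941 bases for *EGFR*, 4917 for *TGFA*) and need not be those of the transcript made. *TGFA* and *EGFR* can therefore not be ordered by these values, and the shares that follow carry the same limit. Among the 4 ligands other than *AREG*, *TGFA* made up 79.8 and 81.7% of the summed RPKM in NCI-H1650 *GFP* libraries. In HCC366 *HBEGF* (49.5 and 41.6%) and *EREG* (34.3 and 40.4%) shared the sum. In A549 *EREG* made up 73.1 to 79.9% in all 8 libraries, and in NCI-H196 *HBEGF* made up 78.8 to 100%, the last value from the library with 1 *HBEGF* read. With *ADAR* KO the NCI-H1650 share of *TGFA* was 70.6 and 70.5% and that of *HBEGF* 28.1 and 28.25%, against 19.5 and 17.25% in its controls. These shares are descriptions of single libraries and were not tested. They also leave out the EGFR ligands *EPGN* (epigen), at 42.5 and 27.7 RPKM in NCI-H1650, 25.9 and 17.8 in NCI-H196, 1.64 and 1.48 in HCC366 and 0.0400 and 0 in A549, and *EGF*, at 1.76 and 1.785 in NCI-H1650. In NCI-H196 the *EPGN* values lay above those of each of the 4 ligands, while in NCI-H1650 they lay below *TGFA*. Of these NCI-H196 libraries 1 was that of 62679 reads, where 1 read was 15.95 CPM, so the order there rests on few reads.

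**Figure D2:**
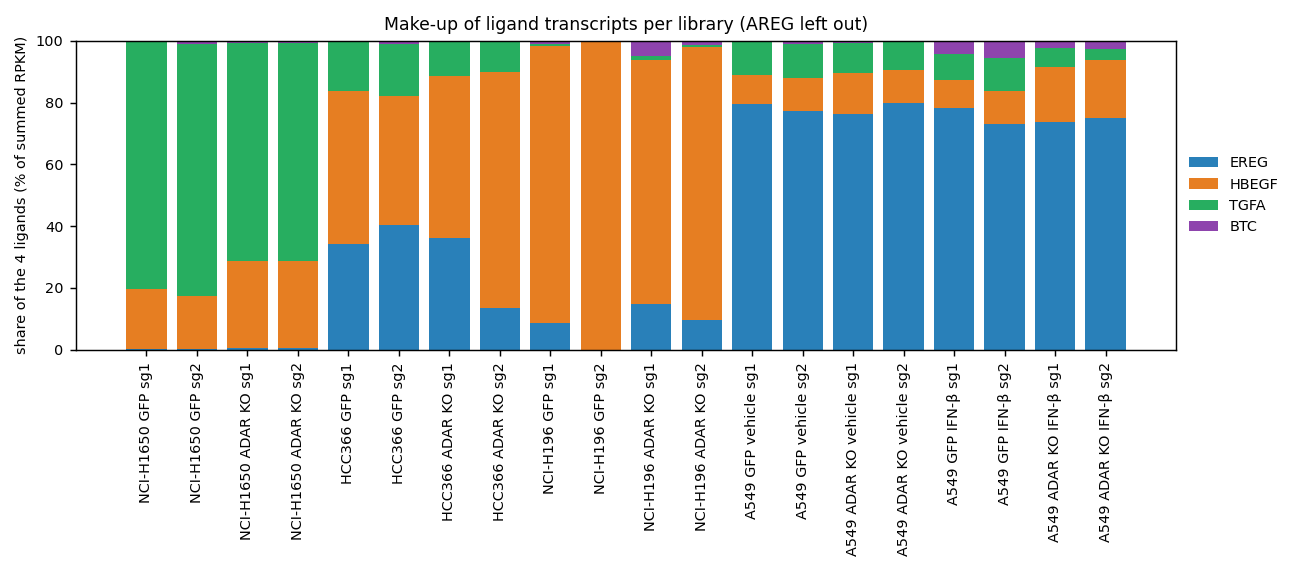
Share (% of summed RPKM, y axis) of *EREG*, *HBEGF*, *TGFA* and *BTC* in each of the 20 libraries (x axis), *AREG* being left out for its duplicated sequence and *EPGN* and *EGF* not being among the 4. *TGFA* fills most of each NCI-H1650 bar (70.5 to 81.7%), *EREG* most of each A549 bar (73.1 to 79.9%) and *HBEGF* most of each NCI-H196 bar (78.8 to 100%).

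The next question was what loss of ADAR1 did to these genes in the lines that need it. From here on CPM are scaled within each cell line. Each line was fitted on its own, and p-values measure the spread between the libraries of different sgRNAs and nothing more, since the labels name no separate cultures. In bulk RNA a change in every cell and a change in the share of cells that express a gene cannot be told apart. Groups of 2 libraries often lie apart without a call, so a lack of overlap is given as a description only. In A549 with vehicle 3 of the 9 genes lay apart with *ADAR* KO higher and 1 with it lower, none of them called. The share of all genes that lay apart is not given here, so a lack of overlap, here and below, is not a result about the 9 genes. With *ADAR* KO, ligands and feedback inhibitors were called higher in NCI-H1650, *AREG* and *SPRY2* in HCC366, and feedback inhibitors alone in NCI-H196. Of all genes tested, 6.18%, 1.20% and 10.3% were called higher in these lines, in that order. None of the 9 genes was called lower in the 3 ADAR1-dependent lines, and *EGFR* itself was called in none of them.

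In NCI-H1650, 6 of the 8 tested genes rose with *ADAR* KO and 0 fell, where 8.60% of 14530 genes were called, 6.18% higher and 2.42% lower. With 1 library left out 3 to 5 of them were called, and the 6 include *EREG*, which passed the low-count filter through its knockout libraries alone. The median log2 fold change of the 8 was 0.64, against 0.01 over all genes. *HBEGF* went from 45.4 and 32.5 CPM in the *GFP* libraries to 70.8 and 76.0 with *ADAR* KO, without overlap (1.88-fold, log2 0.91 ± 0.138, edgeR adjusted p = 2.64e-06). The counted part of *AREG* went from 13.7 and 9.32 CPM to 24.1 and 26.3 (2.17-fold, log2 1.12 ± 0.197, adjusted p = 4.40e-05). Both calls held in each fit that left out 1 library. *EREG* was at 0.662 and 0.239 CPM in the controls and 2.23 and 2.56 with *ADAR* KO, from 3, 1, 12 and 12 reads. Its call (log2 2.31 ± 0.668, adjusted p = 0.0182) was lost whichever library was left out (adjusted p = 0.129 to 0.356) and held with no filter (0.0140).

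The 3 feedback inhibitors also rose in NCI-H1650. *ERRFI1* went from 215.0 and 207 CPM to 281 and 341 (1.47-fold, log2 0.56 ± 0.105, edgeR adjusted p = 0.000149). *SPRY2* went from 23.6 and 23.4 CPM to 33.8 and 43.1 (1.63-fold, log2 0.70 ± 0.161, adjusted p = 0.00206). *SPRY4* went from 42.8 and 34.9 CPM to 52.9 and 63.2 (1.49-fold, log2 0.57 ± 0.140, adjusted p = 0.00439). In each the 2 knockout libraries lay above both controls. In 1 fit of all 20 libraries none of the 3 was called, nor was *EREG*. *SPRY2* and *SPRY4* did not pass with DESeq2 (adjusted p = 0.0823 and 0.110) or without the *ADAR* sgRNA 2 library (0.0678 and 0.0856), and *SPRY4* did not pass without the *GFP* sgRNA 2 library (0.226). *TGFA* was at 306 and 253 CPM in the controls and 292 and 312 in the knockout libraries, which overlap (log2 0.11, 95% interval -0.10 to 0.32). *EGFR* was at 966 and 947 CPM in the controls and 908.5 and 957 in the knockout libraries, again with overlap (log2 -0.04, 95% interval -0.23 to 0.16, adjusted p = 0.883).

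**Figure D3:**
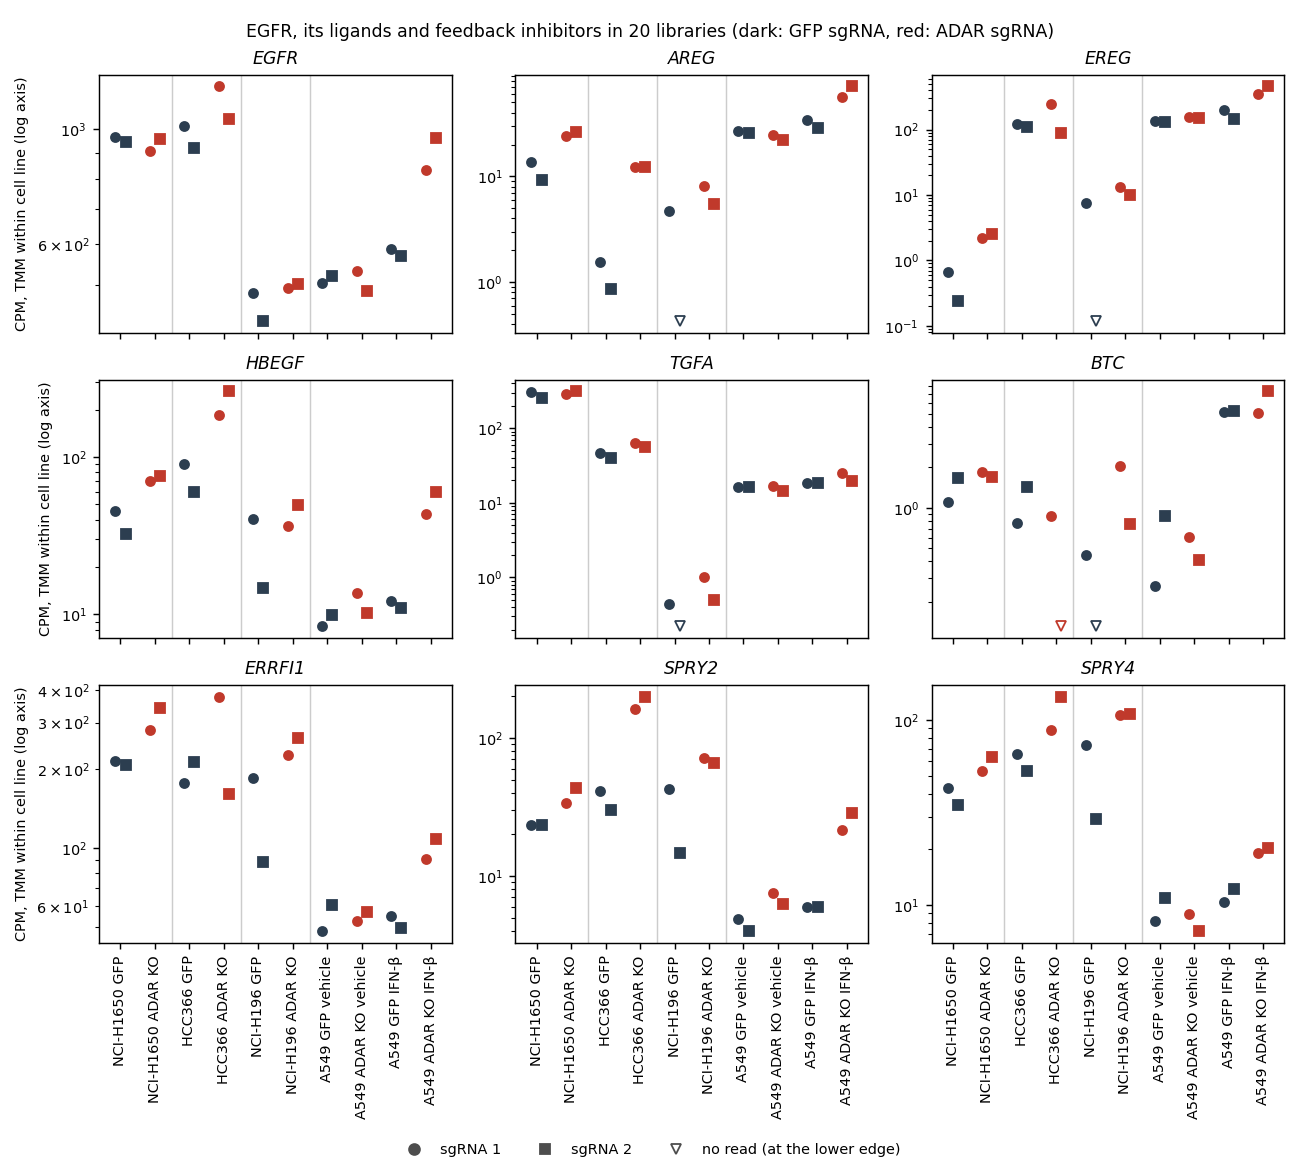
CPM scaled within each line (y axis) for each of the 9 genes in every library, with a point for each sgRNA library, grouped by cell line, target and treatment (x axis). The *EGFR* points of NCI-H1650 overlap between *GFP* (947 and 966) and *ADAR* KO (908.5 and 957), while the *HBEGF*, *ERRFI1*, *SPRY2* and *SPRY4* points of its knockout libraries lie above its controls.

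In HCC366, 2 of 8 tested genes rose with *ADAR* KO, where 1.25% of 11135 genes were called, 1.20% higher and 0.0449% lower. *SPRY2* went from 41.1 and 30.1 CPM to 162 and 200 without overlap (5.14-fold, log2 2.36 ± 0.363, edgeR adjusted p = 0.0273). The counted part of *AREG* went from 1.55 and 0.860 CPM to 12.25 and 12.3, from 2, 3, 14 and 19 reads (log2 3.45 ± 0.588, adjusted p = 0.0356). *AREG* passed the low-count filter through the knockout libraries alone, and with no filter its adjusted p was 0.000237. *HBEGF* was at 90.6 and 59.6 CPM in the controls and 185 and 261 in the knockout libraries, without overlap, and did not pass (log2 1.58 ± 0.371, adjusted p = 0.0849). It did pass with no filter (0.00798) and with DESeq2 (0.00740). *SPRY4* was at 65.85 and 53.0 CPM in the controls and 88.4 and 134 in the knockout libraries (log2 0.91, adjusted p = 0.237).

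For *EREG* and *ERRFI1* the 2 *ADAR* sgRNAs of HCC366 lay on opposite sides of the controls. *EREG* was at 120.1 and 111 CPM in the controls, at 243 with sgRNA 1 and at 87.3 with sgRNA 2. *ERRFI1* was at 177 and 211 CPM in the controls, at 377 with sgRNA 1 and at 160.4 with sgRNA 2. The library below both controls was that of sgRNA 2, which holds the high share of alignments that were not unique. Without it 5 genes were called higher, namely *AREG* (log2 3.48), *SPRY2* (2.27), *HBEGF* (1.37), *EREG* (1.10) and *ERRFI1* (0.97). Without sgRNA 1 instead, *EREG* was at -0.41 and *ERRFI1* at -0.30, neither called, and 4 genes were called higher. Without either *GFP* library none of the genes was called. *EGFR* was at 1016 and 922 CPM in the controls and 1212 and 1046 in the knockout libraries (log2 0.22, 95% interval -0.42 to 0.87), and *TGFA* at 47.25 and 39.5 against 63.9 and 56.3 (log2 0.47, adjusted p = 0.475).

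In NCI-H196, 3 of 7 tested genes rose, all feedback inhibitors, where 17.8% of 14094 genes were called, 10.3% higher and 7.50% lower. *ERRFI1* was at 185 and 87.95 CPM in the controls and 226 and 262 with *ADAR* KO (1.39-fold, log2 0.47 ± 0.104, edgeR adjusted p = 0.000135). *SPRY2* was at 43.05 and 14.7 CPM in the controls and 71.1 and 65.5 with *ADAR* KO (1.56-fold, log2 0.64 ± 0.145, adjusted p = 0.000190). *SPRY4* was at 73.4 and 29.3 CPM in the controls and 107 and 107 with *ADAR* KO (1.47-fold, log2 0.56 ± 0.119, adjusted p = 6.54e-05). Both knockout libraries lay above both controls for each, the lower control always being the library of 62679 reads. Without that library the log2 fold changes were 0.44, 0.62 and 0.53 and remained called (adjusted p = 3.34e-05, 0.000215 and 6.17e-05). With 1 of the other 3 libraries left out, with the sgRNA number as a block (0.494, 0.345 and 0.400), or with DESeq2 none of the genes was called, and DESeq2 called 10 genes in all. The 6 interferon-stimulated genes also rose in this comparison (median log2 1.03), as did *KRT7* (1.03), 1 of 3 tested epithelial markers, and the squamous marker *TP63* (0.93, although the shallow control, with 4 of its reads, lay above both knockout libraries), and their part in these values was not tested.

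The ligands of NCI-H196 gave no call. *HBEGF* was at 40.4 and 14.7 CPM in the controls and 36.5 and 49.3 in the knockout libraries, which overlap (log2 0.23, 95% interval -0.07 to 0.53). *EREG* was at 7.47 and 0 CPM against 13.2 and 10.2 (log2 0.51, edgeR adjusted p = 0.209), and *AREG* at 4.68 and 0 against 8.12 and 5.52 (log2 0.33, adjusted p = 0.577). *TGFA* and *BTC* did not exceed 2.03 CPM and were not tested. *EGFR* was at 482 and 425 CPM against 492 and 502 (log2 0.06, 95% interval -0.15 to 0.27).

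**Figure D4:**
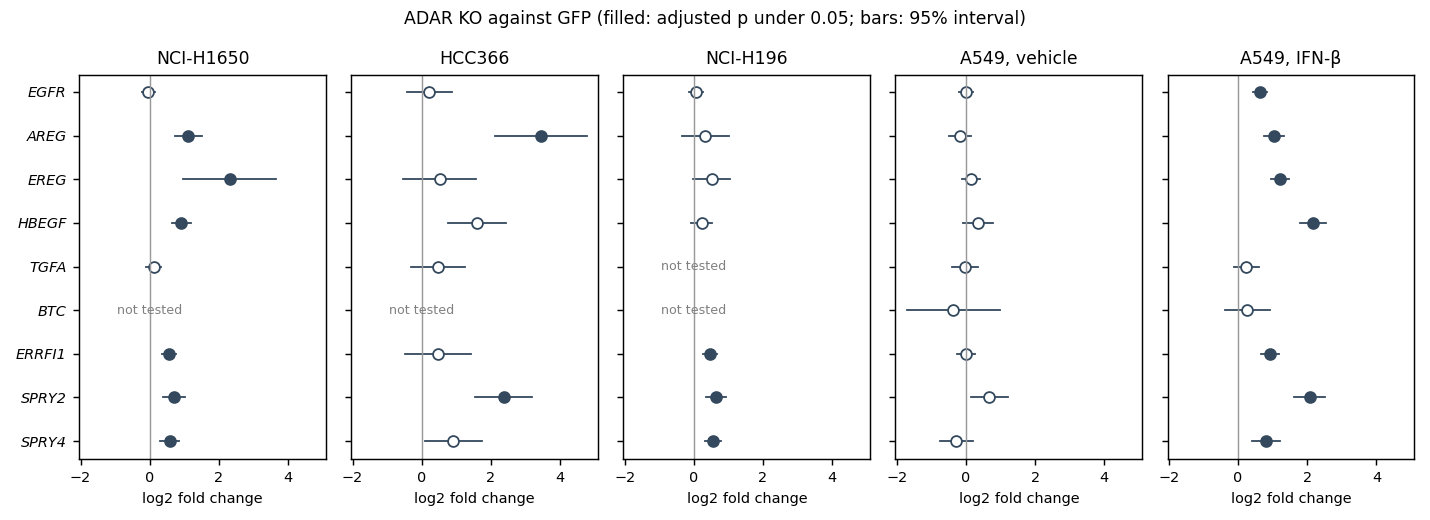
Log2 fold change (x axis, the same range in every panel) of each gene (y axis) with *ADAR* KO in HCC366, NCI-H1650, NCI-H196 and A549 with vehicle or IFN-β, with bars for the 95% interval and filled points where the edgeR adjusted p was under 0.05. The number of filled points is 2, 6, 3, 0 and 7 in that order, all to the right of 0.

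A fit across the 3 ADAR1-dependent lines, with the line as a term, called *SPRY2* (log2 1.25 ± 0.236, edgeR adjusted p = 0.00463), *HBEGF* (0.93 ± 0.206, 0.0136), *SPRY4* (0.69 ± 0.157, 0.0168) and *AREG* (1.24 ± 0.285, 0.0173), 4 of 8 tested genes where 5.30% of 16538 genes were called, 4.28% higher and 1.02% lower. *EREG* (0.66, 0.153), *ERRFI1* (0.50, 0.108), *TGFA* (0.24) and *EGFR* (0.08, 95% interval -0.16 to 0.31) did not pass. Left without the HCC366 *ADAR* sgRNA 2 and NCI-H196 *GFP* sgRNA 2 libraries, the 4 calls remained and those of *EREG* (0.94) and *ERRFI1* (0.58) were added. The calls of *HBEGF* and *SPRY4* were lost without the HCC366 *GFP* sgRNA 1 library (0.0508 and 0.0540), that of *SPRY4* also without the HCC366 *GFP* sgRNA 2 library (0.0587), and that of *AREG* without the NCI-H1650 *GFP* sgRNA 2 library (0.0506).

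Whether NCI-H1650 responded differently from the other lines was tested directly, as its knockout effect minus the mean effect in HCC366, NCI-H196 and A549 with vehicle. None of the 9 genes was called, where 0.0154% of 19523 genes were called (3 genes, with 886 at an unadjusted p under 0.05). The nearest was *EREG* (log2 difference 1.95, 95% interval 0.03 to 3.87, edgeR adjusted p = 0.9999), which rests on the few reads given above. For *SPRY2* the difference was -0.51 (interval -1.03 to 0.01), for *HBEGF* 0.22 (-0.33 to 0.76) and for *EGFR* -0.12 (-0.53 to 0.29). These intervals leave room for differences of either sign in *HBEGF* and *EGFR*. Without the HCC366 *ADAR* sgRNA 1 library 1 gene, *ERRFI1*, was called (0.57, adjusted p = 0.0443).

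A549 allowed a test of *ADAR* KO with and without added interferon, on 8 libraries in 1 fit. The comparisons that follow share libraries and are given side by side. In A549 with vehicle, none of the 9 genes was called with *ADAR* KO. Of 15449 genes 0.123% were called by edgeR (0.0324% higher and 0.0906% lower), 642 had an unadjusted p under 0.05 (1 of them *SPRY2*), and DESeq2 called 11, none of these genes among them. *HBEGF* was at 8.445 and 9.89 CPM in *GFP* libraries and 13.7 and 10.2 in *ADAR* libraries, *SPRY2* at 4.88 and 3.98 against 7.56 and 6.31, and *EGFR* at 504 and 520 against 532 and 487. *SPRY2* and *HBEGF* were without overlap and *EGFR* with it. The log2 fold changes were 0.67 (95% interval 0.13 to 1.20, adjusted p = 0.9985) for *SPRY2*, 0.35 (-0.08 to 0.78) for *HBEGF* and -0.01 (-0.21 to 0.19) for *EGFR*.

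With IFN-β, *ADAR* KO raised 7 of the 9 genes and lowered 0, where 17% of genes were called, 10.8% higher and 6.19% lower. *EGFR* was among them. Treated *GFP* libraries had 586 and 568 CPM and treated *ADAR* libraries 834 and 961, without overlap (1.56-fold, log2 0.64 ± 0.098, edgeR adjusted p = 1.90e-05). This was the 1 *ADAR* KO comparison of the 5 in which the receptor was called.

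The ligands of treated A549 cells rose as well. *EREG* was at 202 and 147 CPM in treated *GFP* libraries and 343 and 458 in treated *ADAR* libraries (2.31-fold, log2 1.21 ± 0.125, edgeR adjusted p = 2.00e-08). *HBEGF* was at 12.1 and 11.05 CPM against 43.3 and 60.4 (4.52-fold, log2 2.18 ± 0.183, adjusted p = 2.70e-10). The counted part of *AREG* was at 33.85 and 28.9 CPM against 56.65 and 71.2 (2.06-fold, log2 1.04 ± 0.140, adjusted p = 2.34e-06). In all 3 both knockout libraries exceeded both controls, and *HBEGF* had the largest fold change of the 3. *TGFA*, at 18.6 and 18.6 CPM against 24.9 and 19.5, did not pass (log2 0.24, 95% interval -0.11 to 0.60).

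The feedback inhibitors moved with them. *SPRY2* was at 6.002 and 5.96 CPM in treated *GFP* libraries and 21.4 and 28.5 in treated *ADAR* libraries (4.21-fold, log2 2.07 ± 0.218, edgeR adjusted p = 2.59e-08). *ERRFI1* was at 55.0 and 49.55 CPM against 90.9 and 108 (1.91-fold, log2 0.93 ± 0.125, adjusted p = 2.19e-06). *SPRY4* was at 10.3 and 12.2 CPM against 19.1 and 20.4 (1.75-fold, log2 0.81 ± 0.201, adjusted p = 0.00508). None of the 3 overlapped, nor did *TGFA*, which was not called. The *SPRY4* call was lost without the treated *ADAR* sgRNA 2 library (0.0884), and each other call held in the 8 fits that left out 1 library. In the same comparison the epithelial markers *CDH1* (log2 -0.74), *KRT8* (-0.48) and *KRT18* (-0.44) fell, 3 of 5 tested, and *ZEB1*, 1 of 2 tested mesenchymal markers, rose (0.52), and their part in these values was not tested.

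In *GFP* cells given IFN-β, *BTC* was the 1 gene of the 9 that was called, where 5.70% of genes were called, 4.39% higher and 1.31% lower. *BTC* was at 0.264 and 0.863 CPM with vehicle, from 2 and 13 reads, and at 5.16 and 5.28 CPM with IFN-β, from 55 and 85 reads. Both treated libraries lay above both others (7.98-fold, log2 2.996 ± 0.436, edgeR adjusted p = 7.99e-06). In *ADAR* KO cells *BTC* was at 0.610 and 0.407 CPM with vehicle and 5.045 and 7.34 with IFN-β (12.4-fold, log2 3.63 ± 0.471, adjusted p = 5.18e-07). *BTC* passed the filter through the treated libraries. Both calls held with no filter (adjusted p = 2.06e-10 and 1.03e-13) and in the 8 fits that left out 1 library. It remained the least abundant of the 4 ligands compared per length in the treated libraries. It made up 4.31 and 5.655% of the summed RPKM of the 4 ligands in treated *GFP* libraries, against 0.329 and 1.08% with vehicle. *BTC* was not called between treated *ADAR* and treated *GFP* cells (log2 0.27, 95% interval -0.37 to 0.91).

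*EREG* in *GFP* cells was at 137 and 133 CPM with vehicle and 202 and 147 with IFN-β, without overlap, and did not pass (log2 0.37 ± 0.127, edgeR adjusted p = 0.0964). It passed with each sgRNA as a block, so that a treated library is set against the vehicle library of its own sgRNA (0.0476), with no filter (0.00820) and without the treated *GFP* sgRNA 2 library (0.00162). The log2 fold changes of the other 7 genes in *GFP* cells lay between -0.07 (*ERRFI1*) and 0.46 (*SPRY2*), with none called. In *ADAR* KO cells IFN-β raised 8 of the 9 genes, where 24.5% of genes were called, 15.5% higher and 9.04% lower. The 8 include *BTC*, which passed the low-count filter through the treated libraries, where it was high. The sizes were 2.14 for *HBEGF*, 1.87 for *SPRY2*, 1.46 for *AREG*, 1.42 for *EREG*, 1.30 for *SPRY4*, 0.86 for *ERRFI1* and 0.82 for *EGFR* on the log2 scale, beside *BTC*. *TGFA* missed the threshold (log2 0.48 ± 0.181, adjusted p = 0.0525). Of 5 tested epithelial markers, *CDH1* (0.66) also rose with IFN-β in *ADAR* KO cells and *CDH1* (0.68) and *KRT8* (0.50) in *GFP* cells, and of 2 mesenchymal markers *ZEB1* rose in *ADAR* KO cells (0.54), and their part in these values was not tested.

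**Figure D5:**
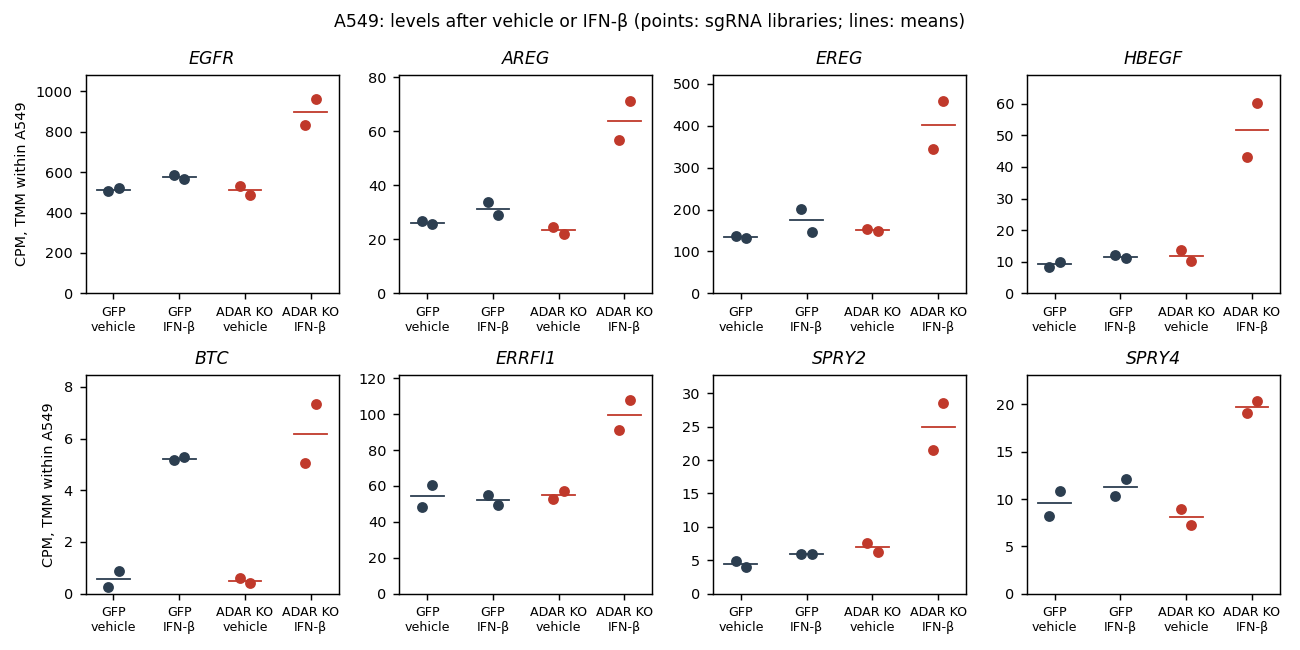
CPM of the genes other than *TGFA* (y axis, from 0) in A549 cells by target and treatment (x axis), with a point for each sgRNA library and a line for the mean of 2. *TGFA*, which was called in none of the A549 comparisons, is not drawn. For *HBEGF*, *EREG*, *AREG*, *SPRY2* and *EGFR* the *ADAR* KO libraries with IFN-β stand above all others (*HBEGF* 43.3 and 60.4 CPM, against 8.445 to 13.7), while *BTC* is raised with IFN-β for either target.

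The interaction term, which asks whether the *ADAR* KO effect differed between IFN-β and vehicle, was past the threshold for 7 of the 9 genes, all with a larger effect under IFN-β, where 5.05% of genes were called, 4.07% upward and 0.977% downward. The largest differences were those of *HBEGF* (log2 1.83 ± 0.279, edgeR adjusted p = 5.76e-05), *SPRY2* (1.41 ± 0.341, 0.0118) and *AREG* (1.20 ± 0.209, 0.000345). *SPRY4*, *EREG*, *ERRFI1* and *EGFR* followed. *BTC* (0.63, 95% interval -0.87 to 2.13) and *TGFA* (0.27, -0.25 to 0.80) did not pass. A fit over all 20 libraries kept *HBEGF*, *AREG* and *SPRY2* only.

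Other genes of the pathway were read from lists chosen with earlier results of these data known, so their counts are descriptions. With *ADAR* KO, 6.18% of all genes were called higher in NCI-H1650, 10.3% in NCI-H196, 1.20% in HCC366 and 4.28% across these lines. In A549 this share was 0.0324% under vehicle and 10.8% under IFN-β. For IFN-β it was 4.39% in *GFP* cells and 15.5% in *ADAR* KO cells, and for the interaction 4.07%. Among 10 further ERK-responsive transcripts, which include the ERK phosphatases *DUSP5* and *DUSP6*, 7 rose with *ADAR* KO in NCI-H1650 and 0 fell (median log2 0.64). The largest there were *DUSP6* (1.22 ± 0.201, edgeR adjusted p = 1.32e-05), *DUSP5* (0.94 ± 0.110, 3.80e-09) and *PHLDA1* (0.73 ± 0.114, 3.93e-06). In NCI-H196 3 of 10 rose, *FOSL1* (0.80), *DUSP5* (0.55) and *DUSP6* (0.47), and in HCC366 0 of 9 passed although their median was 1.17. Across the 3 lines 5 of 10 rose, led by *FOSL1* (1.24), *DUSP5* (1.08) and *DUSP6* (0.95). In A549 0 of 10 were called with *ADAR* KO under vehicle and 5 rose under IFN-β, led by *DUSP6* (2.69 ± 0.261, 5.07e-09), *DUSP5* (1.49) and *PHLDA1* (1.33). IFN-β raised *DUSP5* (0.57) and *DUSP4* (0.33) in *GFP* cells and 7 of 10 in *ADAR* KO cells, and the interaction was called for 5. Phosphorylated EGFR and ERK were not measured in these libraries.

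Of the other ERBB receptors, *ERBB3*, whose product signals as a partner of EGFR and ERBB2, was higher in NCI-H1650 than in HCC366 (log2 2.37), NCI-H196 (4.69) and A549 (2.45), and *ERBB2* was higher by 0.30, 1.14 and 0.52. *NRG1*, which encodes the ERBB3 and ERBB4 ligand neuregulin 1, was lower in NCI-H1650 than in HCC366 (-2.99) and A549 (-4.18) and higher than in NCI-H196 (0.76). Of the other ERBB ligands, *EPGN* and *EGF* were higher in NCI-H1650 than in HCC366 and A549. *EPGN* had 1018 reads in the NCI-H1650 *GFP* libraries, 24 in those of HCC366 (21.1-fold, edgeR adjusted p = 9.09e-44) and 1 in those of A549, and *EGF* had 118, 0 and 6. Against NCI-H196 *EPGN* was higher by 0.48 (adjusted p = 0.00571), as was *NRG2*, from 22 reads against 1. None of the tested ERBB receptors and, outside A549, none of the other tested ERBB ligands was called with *ADAR* KO. In A549 *NRG1* rose with *ADAR* KO under IFN-β (0.64 ± 0.106, edgeR adjusted p = 5.59e-05).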

How the data were processed

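Total RNA was extracted with RNeasy columns, ribosomal RNA was depleted, and directional libraries were made with NEBNext kits. Per the study's methods the authors used STAR for alignment to hg19 and HTSeq for counting, and the deposited files hold raw read counts for each gene, 1 file a library, as the counter wrote them. Tool versions, annotation release and strand setting are not given in the sources used here. HTSeq summary lines were left out of library sizes. Symbols were found for 55727 of 58233 Ensembl identifiers (2506 unmatched). No pair of files was identical (0 pairs).

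Groups were taken from the sample labels, the sgRNAs being the replicates. Counts were tested with edgeR 4.0.16 in R 4.3.3 (limma 3.58.1), with TMM scaling, filterByExpr (minimum count 10, total 15), quasi-likelihood F-tests and Benjamini-Hochberg adjustment over all genes tested, a call being an adjusted p under 0.05. HCC366, NCI-H1650 and NCI-H196 were fitted singly, A549 as 8 libraries, line differences on 8 *GFP* libraries, and the difference of knockout effects on all 20. Fold changes use a prior count of 0.125, and ± is the standard error. Alternatives were DESeq2 1.42.0, its size factors, no filter, the sgRNA number as a block, 1 fit of 20 libraries, and leaving out each library. The fit without 2 doubted libraries and the crossed pairing were chosen after seeing the data. Sequence uniqueness was checked with minimap2 2.31-r1302 on GENCODE v44lift37 exons, whose union gave the lengths for RPKM. Counts limit precision: 1 read was 15.95 CPM in the shallowest library.

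All 9 genes are named. Of each list at most the 3 genes with the largest change past the threshold are named, and some list genes are not reported here. The genes and lists were chosen with earlier results of these data known. Deviations of same-numbered libraries from their group means correlated at -0.253 in HCC366 and between -0.0784 and 0.0179 elsewhere, and a *GFP* and an *ADAR* sgRNA of the same number are different guides. The A549 cells of each sgRNA were given either treatment, which pairs IFN-β with vehicle libraries by design, so for the IFN-β contrasts a fit with each sgRNA as a block is given where it changes a call.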

Additional observations from a re-analysis of the deposited data

Results flagged for a closer look

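In A549 the *ADAR* KO effect under IFN-β differed from that under vehicle for 7 of the 9 genes, by a test of the difference itself (the interaction term, edgeR over 15449 genes). The log2 differences were 1.83 for *HBEGF*, 1.41 for *SPRY2*, 1.20 for *AREG*, 1.08 for *SPRY4*, 1.05 for *EREG*, 0.94 for *ERRFI1* and 0.65 for *EGFR*, with adjusted p-values of 5.76e-05, 0.0118, 0.000345, 0.0329, 0.000275, 0.00123 and 0.00368. *HBEGF*, *AREG* and *EREG* passed in each of the 8 fits that left out 1 library. *EGFR* did not pass without the vehicle-treated *ADAR* sgRNA 2 library (0.0504), *ERRFI1* without the vehicle-treated *GFP* sgRNA 2 library (0.0537), *SPRY2* without the *ADAR* sgRNA 2 library of either treatment (0.0706 and 0.155), and *SPRY4* without each of these 3 libraries in turn (0.183, 0.304 and 0.174). The *ADAR* sgRNAs left different transcript levels of their target: *ADAR* was at 161 and 250.1 CPM with vehicle and 691 and 895 CPM with IFN-β, and the part of that in these values was not tested. Groups of 2 libraries are too small for a check of single outlying libraries.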

How the results depend on the processing

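Of 1500 fold changes of the 9 genes under alternatives, 1368 kept direction and side of the threshold, 61 lost their call (36 without 1 library, 11 with all 20 libraries in 1 fit, 10 with DESeq2, 3 with the block, 1 with no filter), 28 gained one and 43 turned sign. A called value turned in 3, all in NCI-H1650 against NCI-H196 without the NCI-H196 *GFP* sgRNA 1 library (*EREG* 4.05, *SPRY2* 0.93, *SPRY4* 0.66). Causes of these changes were not tested. Scaling over 20 libraries moved 47 of 90 levels by more than the spread between sgRNAs. At 62679 reads the shallow NCI-H196 library could not show 4 of the 9 genes, which had no read there.

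*GFP* and *ADAR* sgRNAs of 1 number are different guides, while in A549 each sgRNA links its vehicle and IFN-β libraries. With the sgRNA number as the replicate block, 300 genes were called for *ADAR* KO in HCC366 (139 without it), 115 in NCI-H196 with 0 of the 9 genes, and 499 across 3 lines. With each sgRNA as a block, 2 of the 9 genes were called for IFN-β in *GFP* cells, and the block changed no other call of the 9 genes for IFN-β or the interaction. With crossed pairs, HCC366 had 960 calls, 3 of the 9 genes among them. *ERRFI1* in A549 with vehicle (0.0061) and *HBEGF* against NCI-H196 (0.14) turned sign with the block.

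With no filter the calls numbered 903 in HCC366, 1552 in NCI-H196, 30 in A549 with vehicle and 1829 across 3 lines, 2 of the 9 genes passed for IFN-β in *GFP* cells, and *ERRFI1* against HCC366 was 0.012. With DESeq2 they numbered 362 in HCC366, 413 in NCI-H1650 (3 of the 9 genes), 10 in NCI-H196 (0), 11 in A549 with vehicle, 3986 against HCC366, 4154 against NCI-H196 (3) and 5450 against A549, with *HBEGF* against NCI-H196 at 0.27, and at 0.15 with its size factors. In the 20-library fit they numbered 3701 in HCC366 (4 of the 9 genes), 159 in NCI-H1650 (2), 98 in NCI-H196 (0), 5 in A549 with vehicle, 1087 with IFN-β, 531 for IFN-β in *GFP* and 2067 in *ADAR* cells, 164 for the interaction (3) and 3148 across 3 lines, with *ERRFI1* against HCC366 at 0.043 and *HBEGF* against NCI-H196 at 0.027. Without both doubted libraries 40 genes differed between NCI-H1650 and the other lines and 1968 were called across 3 lines.

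Leaving out 1 library gave these ranges of genes called, with the range among the 9 genes in parentheses. *ADAR* KO in HCC366 gave 9 to 6408 (0 to 5), in NCI-H1650 542 to 1110 (3 to 5), in NCI-H196 41 to 3041 (0 to 3), in A549 with vehicle 3 to 22 (0) and with IFN-β 689 to 3581 (6 to 7). IFN-β gave 517 to 1245 (1 to 2) in *GFP* and 1774 to 4568 (8 to 9) in *ADAR* cells, and the interaction 253 to 1663 (4 to 7). NCI-H1650 gave 1310 to 10637 (2 to 7) against NCI-H196. The difference of effects gave 0 to 384 (0 to 1) and the fit across 3 lines 328 to 1907 (2 to 6).

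Leaving out 1 library also turned other fold changes, and of all that turned only those of *EREG*, *SPRY2* and *SPRY4* against NCI-H196 had been called. Their ranges with *ADAR* KO were -0.41 to 1.10 (*EREG*) and -0.30 to 0.97 (*ERRFI1*) in HCC366, -0.048 to 0.26 (*TGFA*) in NCI-H1650, -0.12 to 1.69 (*HBEGF*) in NCI-H196, and in A549 with vehicle -0.071 to 0.055 (*EGFR*), -0.14 to 0.087 (*TGFA*), -0.78 to 0.90 (*BTC*) and -0.15 to 0.19 (*ERRFI1*). *BTC* in A549 ranged from -0.049 to 0.49 for *ADAR* KO under IFN-β and from -0.62 to 1.05 in the interaction, and *ERRFI1* from -0.23 to 0.12 for IFN-β in *GFP* cells. Against HCC366 *ERRFI1* ranged from -0.12 to 0.18. Against NCI-H196 the ranges were -0.27 to 1.67 (*HBEGF*) and, for the 3 called genes, -4.79 to 4.05 (*EREG*), -0.85 to 0.93 (*SPRY2*) and -1.01 to 0.66 (*SPRY4*). In the difference of effects they were -2.63 to 0.26 (*AREG*), -0.83 to 2.86 (*EREG*), -0.35 to 0.52 (*HBEGF*), -1.57 to 0.052 (*TGFA*), -0.70 to 2.17 (*BTC*), -0.15 to 0.57 (*ERRFI1*) and -0.32 to 0.38 (*SPRY4*).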

Other observations

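Other steps of the pathway gave the following calls with *ADAR* KO. Of the 4 shedding genes, which release ligands, *RHBDF1* rose in NCI-H1650 (log2 0.36, edgeR adjusted p = 0.0264) and *ADAM10* fell by 0.29 on the log2 scale in NCI-H196 (0.0299). Neither of these genes, nor *ADAM17* or *RHBDF2*, passed in HCC366 or in A549 under either treatment. Of 7 negative regulators that act at the receptor, 1 rose in NCI-H1650 (*CBLB*, an E3 ubiquitin ligase, 0.50). In NCI-H196 2 rose (*LRIG1* 0.65, *CBLB* 0.38) and 2 fell (*SOCS4* -0.33 the larger). In treated A549 3 rose (*LRIG2* 0.83, *SOCS5* 0.65, *SOCS4* 0.48). Of the other Sprouty and SPRED genes, *SPRED3* rose in NCI-H196 (0.77, 1 of 5 tested) and *SPRED1* in treated A549 (0.45, 1 of 3 tested). Among 14 relay genes between receptor and ERK, only *SOS1* was called in NCI-H1650, lower by 0.41 on the log2 scale. Only *BRAF* was called in NCI-H196 (0.50). In treated A549 2 relay genes rose (*BRAF* 0.98 the larger) and *HRAS* fell by 0.48. The A549 interaction was called for *BRAF* (0.97) and *NRG1* (0.53) among all these lists, and in the difference of NCI-H1650 from the other lines none of them was called.

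Over the 10 condition means, the transcripts most like *EGFR* among 19522 others were *EPHA2* (Pearson r = 0.976), *CITED4* (0.964) and *LINC01186* (0.953). Those most like *AREG* were *POLDIP3* (0.982), *ATN1* (0.973) and *NFX1* (0.973), and those most like *HBEGF* were *ZNF558* (0.966), *ETS1* (0.962) and *CLK1* (0.959). These are descriptions of log2 levels that share libraries and scaling, the highest of many, with no test. *EPHA2* is also 1 of the 10 ERK-responsive transcripts above.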
